A study of Homo sapiens with 45 samples.

Results

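The results concern 32 human genes of the ATF4 and amino acid response, chosen by symbol from the gene count tables of HCT116, an established colon cancer cell line, after siRNA depletion of HNRNPK. The product of HNRNPK, hnRNP K, binds C-rich RNA and DNA and takes part in splicing, transcription and translation. All 32 symbols were listed among the 28278 gene names in the table of the siNTC5 and siHNRNPK libraries and among the 27135 names in the tables of the Scramble libraries. The list was drawn up with the knockdown, kit and Scramble results of these libraries in view, so the expression values are given as a description and their counts support nothing by themselves.

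ATF4 is a bZIP transcription factor whose protein is made when the translation initiation factor eIF2 is phosphorylated, as happens when amino acids run short, unfolded protein accumulates in the endoplasmic reticulum, haem is lacking or viral RNA is sensed. It forms dimers with C/EBP proteins and other bZIP factors on composite promoter sites known as C/EBP-ATF response elements. Its targets import amino acids, synthesise them, charge tRNAs, and include factors and phosphatase subunits that feed back on the response. In cultured cancer cells, colon cancer lines included, the pathway is known for its response to a shortage of amino acids in the medium.

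RNA sequencing covered 3 groups, all of HCT116 cells transfected with siRNA at 25 nM and collected at 72 hours. The group named siNTC5 (n = 4) received a nontargeting siRNA and the group named siHNRNPK (n = 4) received HNRNPK siRNA. In both groups replicates 1 and 2 were made with the TruSeq stranded mRNA kit and replicates 3 and 4 with the stranded mRNA Ligation kit. The Scramble group (n = 2), also labelled as nontargeting control siRNA, was made with the TruSeq kit, from RNA purified with an RNeasy kit in place of the Maxwell kit, and was counted in separate tables. The labels do not say whether replicates were separate cultures, so p-values measure the spread between these libraries, which may be technical, and a kit cannot be told apart from any culture or day that went with it.

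The 8 libraries of siNTC5 and siHNRNPK held 12107280 to 23633851 counts and the Scramble libraries 59209169 and 55007171. HNRNPK itself ranged from 814 to 967 CPM (counts per library size, adjusted with TMM factors) in siNTC5 and from 157 to 250 CPM in siHNRNPK, a log2 fold change of -2.17 ± 0.06 (SE). Summed markers of colon epithelial cells ran from 2855 to 3338 CPM in siNTC5 and from 4545 to 5642 CPM in siHNRNPK, led by KRT8, while VIL1, CDX1, LGALS4, GPA33 and CEACAM5, of the same 14 markers, stayed below 0.5 CPM in each library. Of the fibroblast markers COL1A1 reached 122 CPM and each of the other 7 stayed below 1 CPM; of the 6 immune markers only CD68 passed 1 CPM, at 17.2 to 26.5 CPM; the 4 endothelial markers summed to 0.82 to 3.69 CPM. The part of these markers in the results below was not tested. In bulk RNA of this kind, a change in the number of cells that express a gene and a change in RNA per cell cannot be told apart.

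The sequences that carry the composite element are shown first, because dimers of ATF4 are known to bind such sites. RefSeq promoter windows on GRCh38.p14, from 250 bases before to 50 bases after an annotated start, were found for 29 of the 32 genes. NUPR1, SLC7A11 and PYCR1 had no entry. The core letters TGATGNAA, read on both strands, were present in the windows of 9 genes: ATF3, CEBPG, JDP2, CHAC1, SLC3A2, SLC7A1, SLC1A5, SLC1A4 and ASNS. The same letters occurred in 4.46% of all 27305 genes with a window. The sequences of 6 genes with a match are printed below on the strand of the gene, from 5′ to 3′, with the match in capitals and 11 flanking bases on each side; in CHAC1 and SLC1A4 the match is on the opposite strand and so reads reversed.
CHAC1: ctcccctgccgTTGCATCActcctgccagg
ASNS: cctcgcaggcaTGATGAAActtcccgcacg
ATF3: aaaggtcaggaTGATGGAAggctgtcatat
JDP2: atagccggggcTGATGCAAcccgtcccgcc
CEBPG: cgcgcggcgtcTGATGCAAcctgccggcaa
SLC1A4: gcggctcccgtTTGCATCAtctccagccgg

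These sites lie at chr15:40953251-40953280 for CHAC1, chr7:97872458-97872487 (minus strand) for ASNS, chr1:212565205-212565234 for ATF3, chr14:75427995-75428024 for JDP2, chr19:33374060-33374089 for CEBPG and chr2:64989381-64989410 for SLC1A4. The match starts at -209 in CHAC1, at -191 in ATF3, at -68 in ASNS, at -42 in CEBPG, at -16 in JDP2 and at -7 in SLC1A4, counted from the annotated start at position 0. JDP2, CEBPG, CHAC1 and SLC1A4 hold the same 8-letter element, TGATGCAA, as does SLC1A5, and differ in the bases around it; in CHAC1 and SLC1A4 it lies on the strand opposite to the gene and is read above as its reverse complement, TTGCATCA. The cyclic AMP response element TGACGTCA, a site of related bZIP factors, was found in the window of PPP1R15A alone among the 29 genes, against 2.25% of all genes. The PPP1R15A match lies at chr19:48872352-48872381 and starts at -58.
PPP1R15A: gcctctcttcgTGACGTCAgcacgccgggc

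The endoplasmic reticulum stress element occurred in none of the 29 genes and in 0.0916% of all genes. A match of letters is a description of the window and does not show a bound site. The core letters can also fall in the window of a gene that ATF4 does not bind. Sequence outside the windows was not searched, so a gene without a match is not shown to lack the element.

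HNRNPK siRNA went with higher RNA of all 7 tested transcription factors of the response and of most transporters, and with lower RNA of several other genes, among them DDIT4 and PYCR1. A gene is said to have risen or fallen where edgeR's quasi-likelihood test, with library kit as a term, gave a Benjamini-Hochberg adjusted p under 0.05 over all 13933 genes tested. Of the 32 genes, 29 passed the filter on low counts; NUPR1, SESN2 and PCK2 did not. Of the 29, 19 rose, 6 fell and 4 did not pass. Over all genes tested, 35.5% were called higher and 36.1% lower, or 71.5% in either direction. The median log2 fold change was 0.54 in the 29 genes and -0.00 over all genes. With a log2 fold change of 1 or more in either direction, 11 of the 29 genes were called, all of them higher, where 7.47% of all genes were called higher at this size. Of the 17 tested genes that overlap no other RefSeq gene, 9 rose and 4 fell.

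ATF4 (chr22:39520559-39522686), the master factor, was at 382, 388, 498 and 471 CPM in siNTC5 replicates 1 to 4 and at 913, 877, 907 and 914 CPM in siHNRNPK replicates 1 to 4. The groups did not overlap, and the siHNRNPK libraries sat within a narrow band while the siNTC5 libraries split by kit. Lack of overlap was common: of all 13933 genes tested, 28.5% were higher and 28.0% lower in every siHNRNPK than in every siNTC5 library. Of the 29 genes 19 were higher and 3 lower in this sense. These shares are to be read beside each statement on overlap below. The log2 fold change was 1.06 ± 0.05 (SE), a 2.09-fold difference. ATF4 is regulated mostly through translation, which RNA counts do not show.

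ATF3, a stress-induced bZIP factor that can repress its own targets, had the largest log2 fold change of the 29 genes, 2.34 ± 0.07. It was at 18.1, 22.4, 30.2 and 25.0 CPM in siNTC5 and at 106, 109, 135 and 134 CPM in siHNRNPK, so its lowest depleted library stood well above its highest control. DDIT3, which encodes CHOP, a factor linked to cell death under prolonged stress, was at 13.5, 14.3, 26.2 and 22.9 CPM in siNTC5 and at 59.6, 64.6, 72.2 and 71.0 CPM in siHNRNPK. Its log2 fold change was 1.84 ± 0.10, with no overlap between the groups. DDIT3 overlaps MARS1 in the annotation, and the strand that was counted is not given in the sources used here, so reads of these genes may be mixed; MARS1 had a log2 fold change of 1.25 ± 0.05.

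JDP2, a bZIP repressor that pairs with JUN and ATF proteins, was at 6.64, 4.93, 10.9 and 10.9 CPM in siNTC5 and at 19.8, 16.3, 19.9 and 21.0 CPM in siHNRNPK. Its log2 fold change was 1.26 ± 0.14, and every depleted library was above every control. ATF5, a close relative of ATF4 that is also controlled by translation, rose less, by a log2 fold change of 0.32 ± 0.08. Like DDIT3, ATF5 overlaps other counted genes in the annotation, IL4I1 and NUP62 among them, so reads of these genes may be mixed. CEBPB and CEBPG, dimer partners of ATF4, rose by log2 fold changes of 0.54 ± 0.11 and 0.54 ± 0.05.

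**Figure D1:**
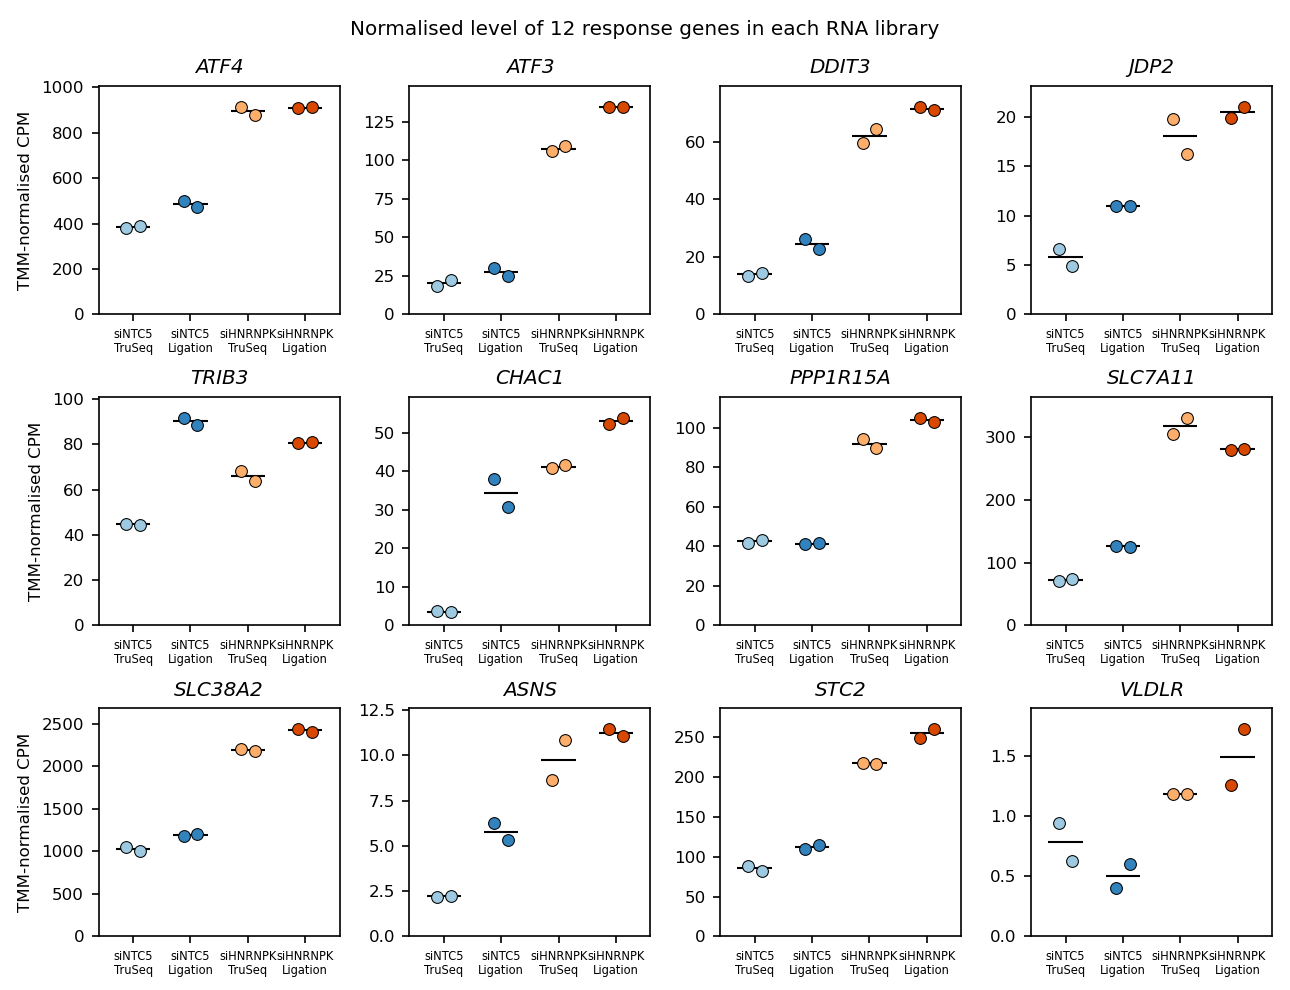
TMM-normalised CPM (linear axes from 0) of 12 response genes in each siNTC5 and siHNRNPK library, by siRNA and library kit; points are libraries and lines are means of 2. ATF3, DDIT3, PPP1R15A, SLC38A2 and STC2 are higher in each siHNRNPK library than in each siNTC5 library, whereas the TRIB3 values of siNTC5 Ligation libraries exceed those of all siHNRNPK libraries.

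Among feedback and signalling genes the directions were mixed. PPP1R15A, which encodes GADD34, the phosphatase subunit that reverses eIF2 phosphorylation, was at 41.6, 43.4, 41.2 and 41.5 CPM in siNTC5 and at 94.0, 89.6, 105 and 103 CPM in siHNRNPK. Its log2 fold change was 1.22 ± 0.06, and its siNTC5 values were alike in both kits. TRIB3, a pseudokinase that inhibits ATF4 and DDIT3, was at 44.8, 44.4, 91.7 and 88.4 CPM in siNTC5 and at 68.0, 63.9, 80.4 and 80.8 CPM in siHNRNPK. The depleted libraries lay between the TruSeq and the Ligation controls, and the log2 fold change of 0.19 ± 0.10 did not pass. It passed without any 1 of the 4 Ligation libraries (0.25 to 0.27, adjusted p 0.0277 to 0.0404) and with no filter on low counts (0.155, adjusted p = 0.0216), by edgeR's quasi-likelihood test.

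CHAC1, which degrades glutathione, was at 3.68, 3.55, 37.9 and 30.7 CPM in siNTC5 and at 40.7, 41.7, 52.3 and 53.9 CPM in siHNRNPK. No depleted library fell below a control, but the controls themselves spanned a wide range, with both TruSeq controls low. The log2 fold change of 1.71 ± 0.33 over both kits therefore averages effects that differ between kits, given below, and without the kit term it was 1.34 and did not pass (adjusted p = 0.0751 by edgeR's quasi-likelihood test). DDIT4, which encodes REDD1, an inhibitor of mTORC1, fell by 0.77 ± 0.10 on the log2 scale. Its siNTC5 libraries were at 225, 154, 353 and 316 CPM and its siHNRNPK libraries at 133, 126, 163 and 173 CPM, so the lowest control lay within the depleted range. SESN2, a leucine sensor and inhibitor of mTORC1, had at most 0.074 CPM in any of the 8 libraries and was not tested.

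Of 8 amino acid transporters 6 rose, SLC1A4 fell and SLC7A1 did not pass. SLC7A11, the cystine and glutamate exchanger that supplies cystine for glutathione, was at 70.9, 74.2, 127 and 126 CPM in siNTC5 and at 304, 331, 279 and 281 CPM in siHNRNPK. The log2 fold change was 1.63 ± 0.12 with no overlap between groups. SLC38A2, a sodium-coupled carrier of small neutral amino acids, was at 1047, 1005, 1177 and 1206 CPM in siNTC5 and at 2203, 2183, 2443 and 2410 CPM in siHNRNPK. Its log2 fold change was 1.06 ± 0.04, and the spread within each group was small beside the gap between groups.

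SLC3A2, the heavy chain shared by SLC7A11 and SLC7A5, rose by a log2 fold change of 0.84 ± 0.06. SLC7A5, the light chain that imports leucine and other large neutral amino acids, rose by 0.58 ± 0.04 on the log2 scale. SLC6A9, a glycine transporter, rose by 0.90 ± 0.15, and SLC1A5, a glutamine carrier, rose by 0.26 ± 0.05. SLC6A9 overlaps CCDC24 in the annotation, so reads of these genes may be mixed. SLC1A4, a carrier of serine and alanine, was at 5.34, 5.80, 11.5 and 10.7 CPM in siNTC5 and at 5.47, 6.24, 4.72 and 5.93 CPM in siHNRNPK. Its fall of 0.50 ± 0.18 on the log2 scale came with depleted libraries level with the TruSeq controls and below the Ligation controls; without any 1 of the 4 Ligation libraries the difference was -0.33 to -0.43 and did not pass. SLC7A1, a carrier of arginine and lysine, had a log2 fold change of -0.02 ± 0.05.

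The enzymes of the list did not move together. ASNS, asparagine synthetase (chr7:97851677-97928441), was at 2.19, 2.26, 6.26 and 5.31 CPM in siNTC5 and at 8.63, 10.8, 11.5 and 11.0 CPM in siHNRNPK, a log2 fold change of 1.48 ± 0.19 with no overlap between groups. ASNS overlaps the readthrough gene CZ1P-ASNS, so the level listed for ASNS may leave out shared reads. CZ1P-ASNS held 0.717 to 2.96 CPM in these libraries, on library totals without TMM factors. PYCR1, the last enzyme of proline synthesis, fell by 0.74 ± 0.05 on the log2 scale, and ALDH18A1, the first enzyme of that route, fell by 0.17 ± 0.04. CTH, which makes cysteine from cystathionine, had a log2 fold change of -0.01 ± 0.09. PCK2, mitochondrial phosphoenolpyruvate carboxykinase, was listed at 0 in all 8 libraries.

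STC2, a secreted glycoprotein, was at 88.4, 82.1, 109 and 115 CPM in siNTC5 and at 217, 217, 249 and 260 CPM in siHNRNPK, a log2 fold change of 1.27 ± 0.05. Every depleted library was above every control. VLDLR, a lipoprotein receptor, was at 0.949, 0.626, 0.400 and 0.602 CPM in siNTC5 and at 1.19, 1.19, 1.26 and 1.73 CPM in siHNRNPK. Its log2 fold change of 1.04 ± 0.31 rests on few reads. XPOT, the exportin of tRNAs, rose by 0.27 ± 0.04 on the log2 scale. CLGN, an endoplasmic reticulum chaperone, fell by 0.81 ± 0.20, and LONP1, a mitochondrial protease, fell by 0.40 ± 0.07. LONP1 overlaps the ribosomal protein gene RPL36 in the annotation, and its fall did not pass without the kit term. ADM2, a peptide of the calcitonin family, had a log2 fold change of 0.08 ± 0.15. NUPR1, a stress-induced chromatin protein, reached 1.05 CPM at most and was not tested.

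The knockdown differences were then taken within each kit, with 2 libraries a group and the spread shared over all 8. In TruSeq libraries 20 of the 29 genes rose and 4 fell, where 30.2% of all genes were called higher and 32.5% lower. In Ligation libraries 18 rose and 6 fell, where 31.6% were called higher and 31.3% lower. In the same direction in both kits were 17 genes that rose and 3 that fell (DDIT4, PYCR1 and LONP1). The share of all genes that passed in the same direction in both kits was not counted, so these counts have no background beside them. ATF3 gave log2 fold changes of 2.39 ± 0.09 and 2.29 ± 0.09 in TruSeq and Ligation libraries, and PPP1R15A gave 1.11 ± 0.07 and 1.33 ± 0.07. For ATF4 these were 1.22 ± 0.05 and 0.91 ± 0.05, and for DDIT3 2.15 ± 0.09 and 1.55 ± 0.09.

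**Figure D2:**
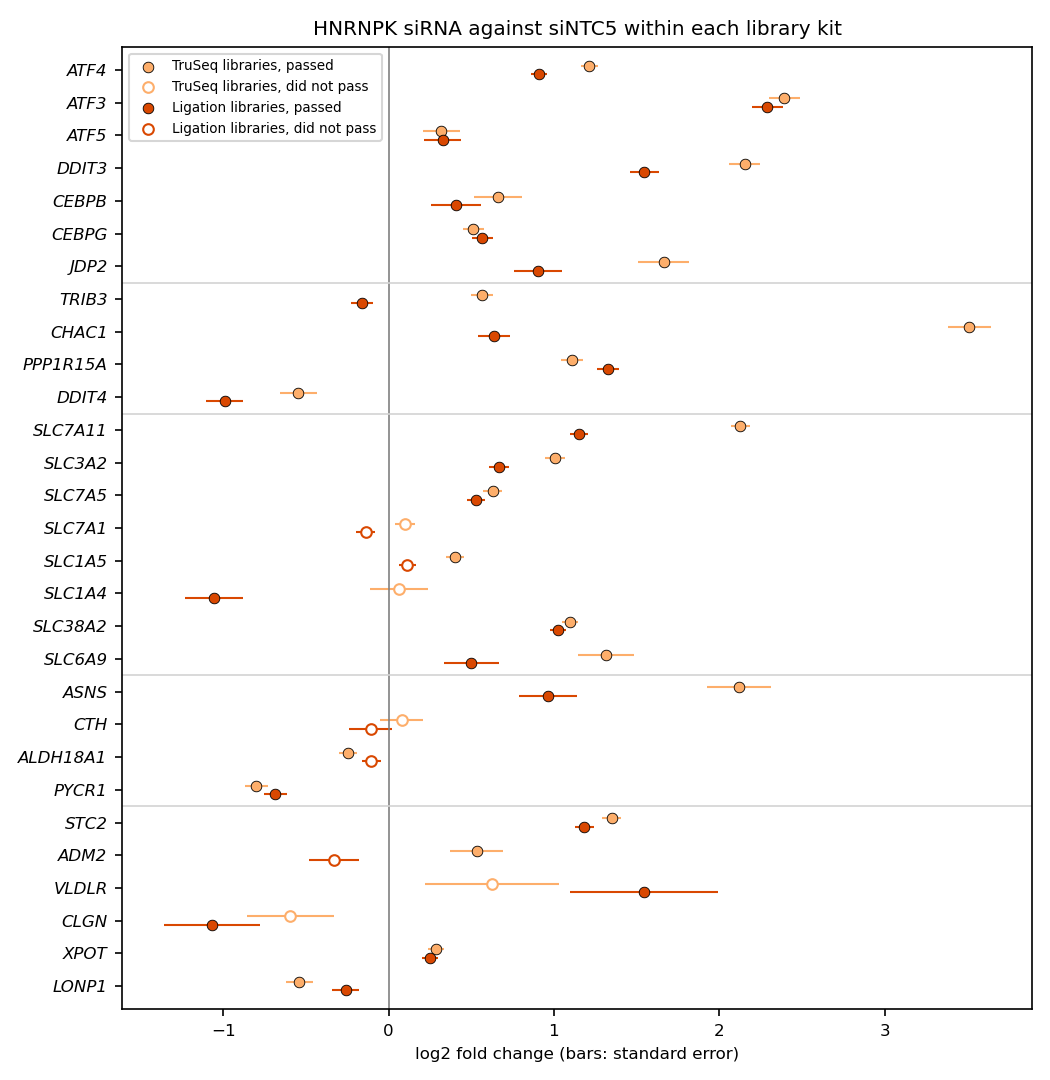
Log2 fold change of siHNRNPK over siNTC5 within TruSeq and within Ligation libraries for the 29 tested genes, ordered by role (factors, feedback and signalling, transporters, enzymes, other proteins), with bars of 1 SE; filled points passed at an adjusted p under 0.05. The pairs lie close together for ATF3 and SLC38A2 and furthest apart for CHAC1, at 3.51 in TruSeq and 0.64 in Ligation libraries.

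A test of the difference between the kits' knockdown effects (Ligation minus TruSeq) called 3 of the 29 genes, CHAC1, SLC7A11 and TRIB3, where 0.129% of all genes, 18 of 13933, were called; at an unadjusted p under 0.05 there were 1639. CHAC1 differed by -2.88 ± 0.17 on the log2 scale, SLC7A11 by -0.98 ± 0.08 and TRIB3 by -0.73 ± 0.10. CHAC1 was 11.4-fold higher after knockdown in TruSeq libraries and 1.55-fold higher in Ligation libraries. SLC7A11 was 4.37-fold higher in TruSeq and 2.22-fold higher in Ligation libraries. TRIB3 rose by 0.57 ± 0.07 on the log2 scale in TruSeq libraries and fell by 0.16 ± 0.07 in Ligation libraries, a call that was lost with DESeq2's test, with upper-quartile factors, with a mean of at least 50 counts and without any 1 of the 4 Ligation libraries. Over the 29 genes 22 estimates were below 0 and 7 above, with a median of -0.25, beside 0.02 over all genes. ATF4, DDIT3, ASNS, JDP2 and SLC1A4 had differences of -0.30 ± 0.07, -0.61 ± 0.13, -1.15 ± 0.27, -0.76 ± 0.21 and -1.12 ± 0.25 that did not pass. DDIT3 passed with the replicate number as a block (-0.61, adjusted p = 0.0301 by edgeR's quasi-likelihood test), and ATF4 and DDIT3 passed by DESeq2's Wald test (adjusted p = 0.00773 and 0.032). With no filter, and without siNTC5 replicate 1, ATF4, DDIT3, JDP2 and ASNS passed.

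The number of calls for this difference depended on single controls. It was larger without siNTC5 replicate 1 or replicate 2, among these genes and over all genes, and each of these fits leaves 1 TruSeq control. The estimates of the 3 genes called moved little. With 1 library left out they ranged from -3.05 to -2.74 for CHAC1, from -1.04 to -0.92 for SLC7A11 and from -0.77 to -0.68 for TRIB3. In a check of counts between libraries of the same siRNA and kit, siNTC5 replicates 1 and 2 stood further apart (chi-square per degree of freedom 8.04) than the other 3 pairs of the 8 libraries (2.23 to 2.48).

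The control libraries of the 2 kits differed for many of these genes. Between the Ligation and the TruSeq controls, which received the same siRNA, 19 of the 29 genes were higher with the Ligation kit and 0 were lower by the same quasi-likelihood test, where 10.4% of all genes were called higher and 11.1% lower. The median log2 fold change was 0.33 in the 29 genes and 0.01 over all genes. With a log2 fold change of 1 or more in either direction the genes called were CHAC1, ASNS and TRIB3, where 0.998% of all genes were called at this size. CHAC1 was 9.47-fold higher in the Ligation controls (log2 3.24 ± 0.13), ASNS 2.58-fold higher (1.37 ± 0.21) and TRIB3 2.02-fold higher (1.01 ± 0.07). All 8 transporters were called higher, from 0.17 ± 0.06 for SLC7A1 to 0.98 ± 0.16 for SLC1A4 on the log2 scale. ATF4 rose by 0.33 ± 0.05, DDIT3 by 0.81 ± 0.10, ATF3 by 0.43 ± 0.10 and JDP2 by 0.94 ± 0.16. PPP1R15A (-0.04 ± 0.07), ATF5 (0.02 ± 0.11), CEBPB (0.10 ± 0.15) and CEBPG (0.08 ± 0.07) did not pass. These counts rest on 2 libraries a kit, and the TruSeq controls are the pair that stood furthest apart in the check above. The number of calls over all genes, and so the share given beside these genes, moved widely when a control library was left out. Without siNTC5 replicate 3 the calls of ATF3 (0.30), SLC3A2 (0.12) and SLC7A1 (0.16) were lost, and SLC7A1 was also lost without siNTC5 replicate 4 or either TruSeq siHNRNPK library.

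In depleted cells fewer of these genes were called between kits. Between the Ligation and the TruSeq siHNRNPK libraries 8 genes were higher (ATF3, DDIT4, SLC38A2, SLC7A5, LONP1, CHAC1, STC2 and TRIB3) and SLC7A11 was lower, where 9.12% of all genes were called higher and 6.12% lower. ATF4 differed by 0.02 ± 0.05 on the log2 scale and ASNS by 0.21 ± 0.17. CHAC1 differed by 0.37 ± 0.10 and SLC7A11 by -0.18 ± 0.05. These counts rest on 2 libraries a kit, and between 1 and 13 genes were called when 1 library was left out, while the calls over all genes ranged from 769 to 3162 in place of 2123. HNRNPK was itself lower in Ligation than in TruSeq libraries, by 0.56 ± 0.06 on the log2 scale in depleted and by 0.22 ± 0.05 in control cells; its part in these differences was not tested. The comparisons of kits and of knockdown within kits share libraries, so their values are set side by side and not correlated.

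**Figure D3:**
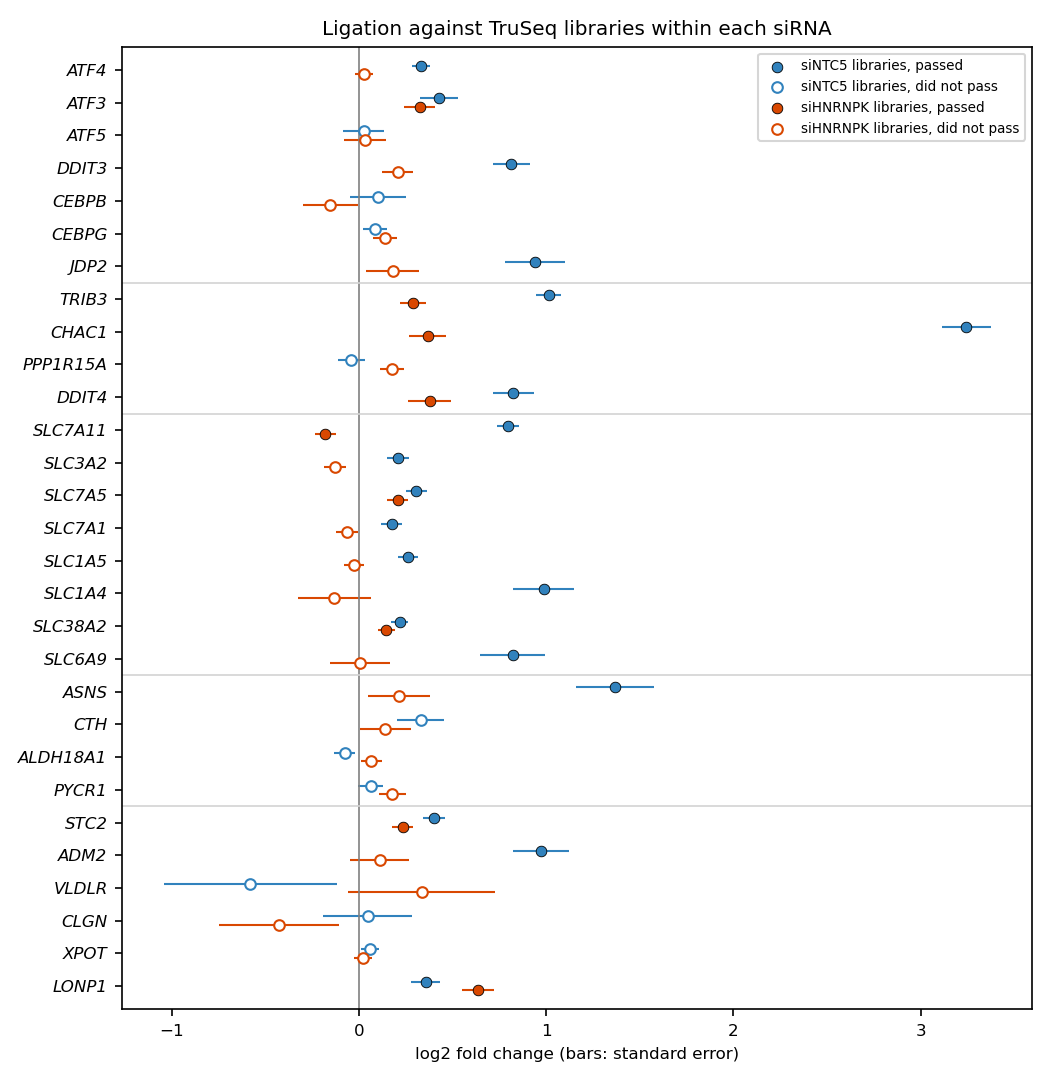
Log2 fold change of Ligation over TruSeq libraries within siNTC5 and within siHNRNPK for the 29 tested genes, with bars of 1 SE; filled points passed at an adjusted p under 0.05. In siNTC5 the filled points all lie above 0, with CHAC1 at 3.24, and in siHNRNPK 8 lie above 0 and SLC7A11 lies below.

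Neighbouring genes of the pathway, from lists of other members of the same processes, were counted in the same fits. Of 20 cytosolic aminoacyl-tRNA synthetases, which charge tRNAs and include ATF4 targets, 14 rose and 3 fell after knockdown, with a median log2 fold change of 0.45. VARS1 rose by 2.08 ± 0.44, AARS1 by 1.17 ± 0.06 and GARS1 by 0.95 ± 0.05. Of 8 tested serine and one-carbon genes 5 rose and 1 fell: PSAT1 and PHGDH of serine synthesis rose by 1.44 ± 0.09 and 1.43 ± 0.07, MTHFD2 rose by 1.12 ± 0.04, and MTHFD1 fell by 0.43 ± 0.05. Of 19 eIF2 kinases and eIF2 factors 12 rose and 5 fell. EIF2AK3, which encodes the kinase PERK, rose by 1.00 ± 0.09 and EIF2S3, a subunit of eIF2, by 1.03 ± 0.04. EIF2A rose by 0.81 ± 0.04, and PPP1CA, among those that fell, had -0.775 ± 0.041. Over all genes tested 71.5% were called, 35.5% higher and 36.1% lower, to be read beside each of these counts.

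The next counts, too, are to be read beside the 35.5% of all genes called higher and the 36.1% called lower. Of 16 tested endoplasmic reticulum stress genes 8 rose and 5 fell. The chaperone HSPA5 rose by 1.42 ± 0.05 and HERPUD1, a factor of protein degradation at that membrane, by 1.57 ± 0.04, while CRELD2 fell by 1.38 ± 0.09. Of 7 genes of the mitochondrial stress relay, which signals to eIF2 through DELE1, 6 rose and CLPP fell; DELE1 rose by 0.33 ± 0.05 and OMA1 by 0.42 ± 0.09. Of 22 bZIP partners and regulators of ATF4 9 rose and 6 fell, with JUN up by 1.07 ± 0.16 and FOS down, at -1.51 ± 0.08. EGLN3 and CEBPA were down as well, at -1.72 ± 0.12 and -1.10 ± 0.16. Of 18 mTORC1 nutrient sensors 4 rose and 7 fell, and of 14 other amino acid transporters 5 rose and 7 fell, with a median of -0.27 for the transporters. SLC1A3, a glutamate carrier, rose by 1.40 ± 0.08, and SLC1A1, another glutamate carrier, had -1.07 ± 0.09.

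Between the Ligation and TruSeq controls the same lists gave other counts, to be read beside the 10.4% of all genes called higher and the 11.1% called lower. Of the 20 synthetases 6 were higher and 4 lower, with AARS1 at 0.48 ± 0.06, GARS1 at 0.39 ± 0.05 and FARSB at -0.33 ± 0.06. Of the 8 serine and one-carbon genes 3 were higher and 1 lower, with PHGDH at 0.60 ± 0.06 and PSAT1 at 0.58 ± 0.05. Of the 16 endoplasmic reticulum stress genes 4 were higher and 0 lower by the quasi-likelihood test, HERPUD1 at 0.43 ± 0.06 and HSPA5 at 0.23 ± 0.05 among them. Of the 14 other transporters 0 were higher and 5 lower. Of the 19 eIF2 genes 1 was higher and 4 lower. Of the 7 genes of the mitochondrial relay 0 were higher by that test and HSPE1, a mitochondrial chaperonin, was lower (-0.735 ± 0.081). Of the 22 bZIP partners and regulators 2 were higher and 2 lower, with JUND at 0.43 ± 0.14 and FOS at -1.90 ± 0.07. Of the 18 mTORC1 nutrient sensors 2 were higher, SESN3 at 0.68 ± 0.18 among them, and 1 was lower.

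The Scramble controls were set against siNTC5 on the 25527 gene names that the tables share. Several of the 32 genes had levels that the tables list differently. SESN2 was at 172 and 166 CPM and PCK2 at 178 and 153 CPM in the Scramble libraries, against at most 0.074 CPM in the other 8, on TMM factors over all 10 libraries. ASNS was at 919 and 842 CPM in Scramble and at 2.19 to 11.4 CPM in the others, and its overlapping gene CZ1P-ASNS has values only in the table of 8 libraries. Of the shared names, 293 were below 1 CPM in all 8 libraries and at 10 CPM or more in both Scramble libraries, and 4 showed the reverse. For these counts of names CPM was taken on library totals, without TMM factors. HNRNPK was at 815 and 851 CPM in Scramble and at 819 to 968 CPM in siNTC5 on the same scale. The purification, the table and the genome builds named in the notes differ between these groups, so their parts cannot be told apart from that of the control siRNA. Folds for SESN2, PCK2, ASNS, NUPR1 and VLDLR across tables are not read as changes.

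Of the 32 genes, all tested here, 30 were higher in Scramble than in siNTC5 and VLDLR was lower, where 35.1% of all genes were called higher and 33.5% lower. Without those 5 genes, 26 of 27 were higher and CLGN (0.00 ± 0.20) did not pass. The median log2 fold change of all 32 was 1.60, beside 0.00 over all genes. Kit was a term of this fit and both Scramble libraries are TruSeq. Each log2 fold change of Scramble over siNTC5 is therefore a difference from the TruSeq siNTC5 libraries, in which many of these genes were lower than in the Ligation ones. SLC1A4, for example, was at 5.32 and 5.81 CPM in the TruSeq and at 11.5 and 10.8 CPM in the Ligation siNTC5 libraries. CHAC1 was at 163 and 148 CPM in Scramble, 41.7-fold above the level of TruSeq siNTC5 libraries (log2 5.38 ± 0.12). TRIB3 was at 342 and 320 CPM in Scramble, a log2 fold change of 2.84 ± 0.06, and SLC1A4 was at 44.6 and 42.4 CPM, at 2.91 ± 0.10. Among the factors ATF4 was at 894 and 860 CPM and higher by 1.14 ± 0.06, JDP2 by 2.74 ± 0.13, DDIT3 by 2.08 ± 0.09 and ATF3 by 1.83 ± 0.11.

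Most of the 32 genes were higher in the Scramble libraries than in the TruSeq siHNRNPK libraries as well. This comparison was chosen after the values were seen. In siHNRNPK TruSeq libraries 27 of the 32 genes were lower than in Scramble and 2 were higher, where 41.6% of all genes were called lower and 37.9% higher; without the 5 genes set aside, 23 of 27 were lower and ATF3 was higher. ATF4 differed by 0.03 ± 0.05 on the log2 scale, DDIT3 by 0.02 ± 0.07 and SLC38A2 by -0.08 ± 0.05, and these 3 did not pass. With upper-quartile factors, which moved the median of all genes from -0.04 to 0.16, ATF4 (0.22), DDIT3 (0.22) and SLC38A2 (0.11) passed as higher after knockdown, moved by about as much as that median. ATF3 was higher after knockdown by 0.51 ± 0.08, at 106 and 109 CPM against 76.5 and 74.0 CPM. TRIB3 differed by -2.33 ± 0.06, CHAC1 by -1.92 ± 0.08, DDIT4 by -2.31 ± 0.11 and SLC1A4 by -2.90 ± 0.12. When the Scramble libraries were added to siNTC5 as controls of the knockdown comparison, 6 of the 29 genes were called in place of 25, while the calls over all genes went from 9968 of 13933 to 7046 of 14642. ATF4 (0.67, adjusted p = 0.0688 by edgeR's quasi-likelihood test), DDIT3 (1.07, adjusted p = 0.0954) and CHAC1 (-0.26, adjusted p = 0.857) did not pass.

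**Figure D4:**
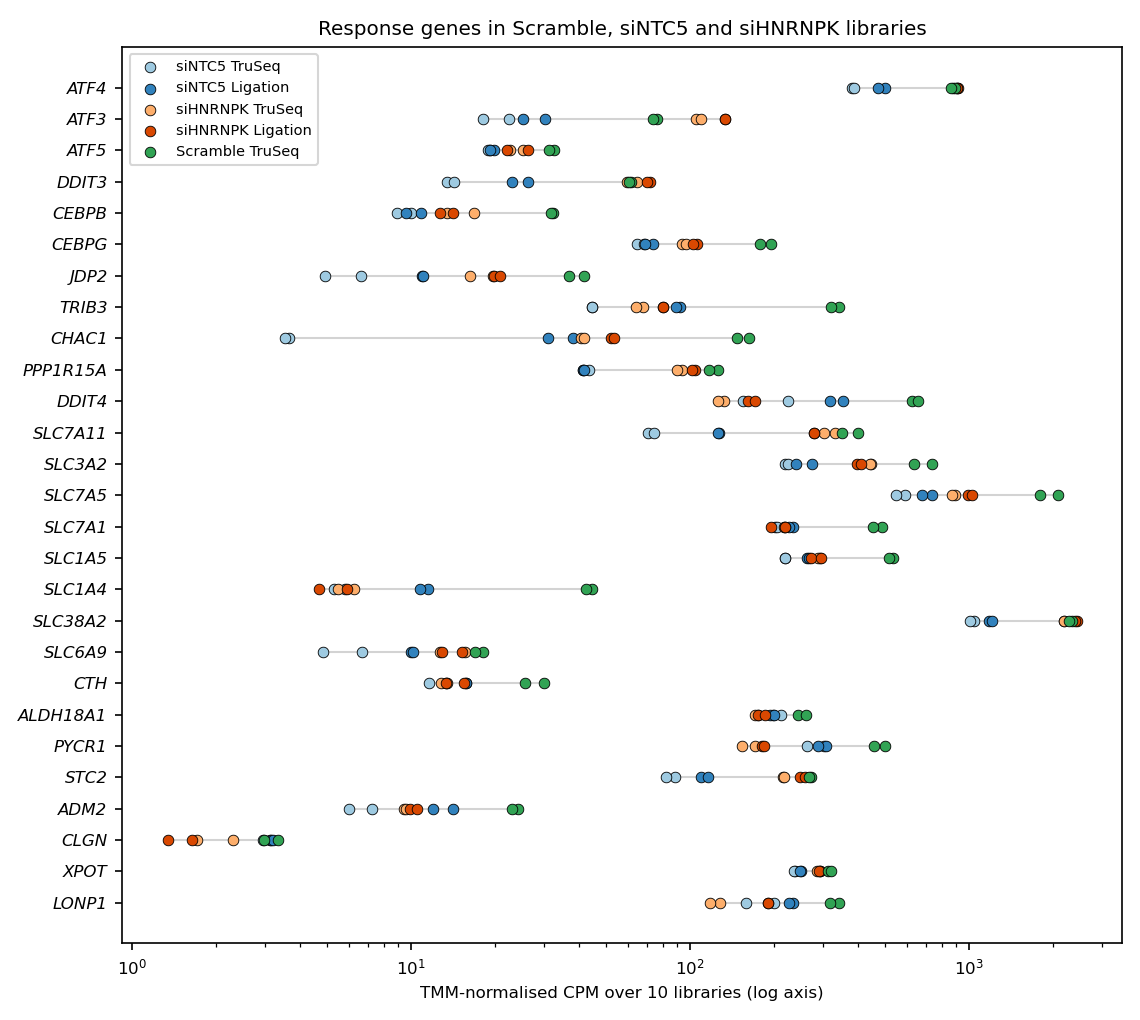
TMM-normalised CPM (log axis) in all 10 RNA libraries for 27 of the 32 genes, leaving out ASNS, SESN2, PCK2, VLDLR and NUPR1; each point is a library, coloured by siRNA and kit, and grey lines join the lowest and highest. The Scramble libraries are the highest for CHAC1, TRIB3 and SLC1A4, and they sit beside the siHNRNPK libraries for ATF4, DDIT3 and SLC38A2.

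The gene bodies were then placed in the lists of ChIP domains that the study called for lamin B1, which lines the inner nuclear membrane, and for the histone marks H3K9me2, H3K9me3 and H3K27me3. The ChIP samples were replicates treated with control or HNRNPK siRNA, at the same concentration and time as the RNA groups. H3K9me2 was profiled with control siRNA only. There is 1 list per antibody and siRNA, so the spread between replicates cannot be seen, and the depth behind each list is unknown. In control cells none of the 32 genes had at least 50% of its body in a lamin B1, H3K9me2 or H3K9me3 domain, where 2.96%, 1.20% and 2.94% of the 13478 tested genes with a position did. In depleted cells ADM2 (chr22:50481543-50486437) lay with 100% of its body in a lamin B1 domain, beside 2.57% of tested genes, and 0 of the 32 lay in an H3K9me3 domain, beside 5.91%. No test was made of these counts.

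ASNS and VLDLR lay in H3K27me3 domains in both control and depleted cells. H3K27me3 is the mark of Polycomb repression. The domains covered 100% of ASNS and 86.8% of VLDLR in both lists, where 9.83% of tested genes lay in such a domain in control and 8.41% in depleted cells. The ASNS body used here, chr7:97851677-97928441, extends well beyond the start beside its promoter match at chr7:97872458-97872487. The low ASNS level in the 8 libraries may leave out shared reads, and ASNS was at 919 and 842 CPM in Scramble. Any part of this mark in the RNA levels was not tested. SLC7A1 was covered over 30.5% of its body in control cells and 24.7% in depleted cells, and SLC38A2 was covered by H3K9me3 over 12.4% in both. ATF4, ATF3, DDIT3, CHAC1 and TRIB3 had no base in any of the 7 lists.

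The promoter letters were also set beside the RNA values. Over all tested genes with a window, 156 of the 302 that hold the C/EBP-ATF core letters were called higher after knockdown (51.7%) and 82 lower (27.2%), against 3611 and 3888 of the 10318 without them (35.0% and 37.7%). This split was chosen after values were seen and carries no test. Of the 9 genes with the C/EBP-ATF core letters 7 rose after knockdown, SLC1A4 fell and SLC7A1 did not pass. Of the 18 tested genes with a window and without those letters 11 rose, 4 fell and 3 did not pass. CHAC1, JDP2, CEBPG, SLC1A5 and SLC1A4, which hold the same 8-letter element on 1 strand or the other, gave log2 fold changes of 1.71, 1.26, 0.54, 0.26 and -0.50. PPP1R15A, with the cyclic AMP response element, gave 1.22 and was level between the kits' controls.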

How the data were processed

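The values used are raw counts per gene symbol, whole numbers deposited by the authors, and chromosome positions of ChIP domains. Reads were processed with STAR 2.7.1a and featureCounts (Subread 2.0.6 for the 8 libraries), per the submitters' processing notes, which name hg38 for the 8 libraries and the ChIP samples and both hg19 and hg38 for Scramble; the score deposited with each domain by the authors was not used, its scale not being stated. Annotation, strand setting and domain caller are not given in the sources used here. Counts were filtered with filterByExpr, scaled by TMM and tested with edgeR 4.0.16 (quasi-likelihood, Benjamini-Hochberg, threshold 0.05) under R 4.3.3. SEs are not reported by edgeR. They were derived as the absolute log2 fold change over the square root of the F statistic of the quasi-likelihood test. Knockdown was fitted with kit as a term, and kit contrasts and the interaction on 1 mean per siRNA and kit. Scramble was compared on shared names. Against siNTC5 the fit had kit as a term, so that contrast rests on the TruSeq controls.

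The members and lists were chosen with earlier results of these data known. Values in every library are given for ATF4, CHAC1, ASNS, TRIB3, DDIT3 and ATF3, for members passing the interaction, and for members passing the knockdown or control-kit comparison at a log2 fold change of 1 or more in size; SLC1A4 and DDIT4 were added after their values were seen. From each pathway list the text names some of the 4 largest changes that passed. Domains and promoter windows were matched to RefSeq (GRCh38.p14) by symbol. On simulated counts, 196 of 200 genes changed by 1 on the log2 scale among 13768 were recovered for the knockdown comparison. Of the unchanged genes 11 were called. The simulation changed few genes, held no kit effect and set no change below 1. It therefore does not show how well the smaller changes given here were recovered. Same-numbered libraries correlated in their deviations from group means, at 0.1004, 0.4246, 0.3365 and 0.2653 across genes for replicates 1, 2, 3 and 4. Same-numbered libraries also share a kit, and with kit removed the correlations were -0.191, -0.156, -0.281 and -0.252. With so few libraries, removing kit by itself pulls these correlations below 0, so they cannot decide whether the numbers pair samples. The main fits did not pair libraries, and the replicate number entered only as a block among the alternatives. Alternatives covered normalisation, filters, DESeq2 1.42.0, kit terms, a replicate block, added controls and left-out libraries.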

Additional observations from a re-analysis of the deposited data

Results flagged for a closer look

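The effect of HNRNPK siRNA differed between library kits for CHAC1 (-2.88 on the log2 scale, Ligation minus TruSeq), SLC7A11 (-0.98) and TRIB3 (-0.73) by the interaction term of edgeR's quasi-likelihood test. In each of these genes the 2 TruSeq siNTC5 libraries were the lowest of the 8, and the kit cannot be told apart from any culture that went with it.

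Within groups of 4, a single library stood apart for 3 genes: SLC7A1 at 195.74 CPM in siHNRNPK replicate 3, VLDLR at 1.73 CPM in siHNRNPK replicate 4 and XPOT at 285.21 CPM in siHNRNPK replicate 2, by Dixon's criterion. Chance flags about 1 in 20 groups, and 58 groups were checked.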

How the results depend on the processing

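The number of genes called in the knockdown comparison was 25 without any 1 library and 25 with a replicate block in place of kit, which also gave 24 in each kit and 4 for the interaction; among the named genes the block changed only the DDIT3 interaction call. The Scramble libraries as added controls lowered the 25 to 6, and the calls over all genes from 9968 of 13933 to 7046 of 14642. Under this setting the estimate changed sign for CEBPB (-0.091), TRIB3 (-0.921), CHAC1 (-0.259), SLC7A5 (-0.062), SLC1A5 (-0.165), ASNS (-2.572) and ADM2 (-0.532); none of these 7 passed (adjusted p 0.291 to 0.915 by edgeR's quasi-likelihood test), TRIB3 and ADM2 had not passed without it, and the ASNS value crosses tables that list the gene differently and is not read as a change. The cause was not tested. A minimum absolute log2 fold change of 1 left 11 genes for the knockdown, 12 within TruSeq, 9 within Ligation, 3 between kits in controls, 0 between kits in depleted cells, 1 for the interaction and 17 for siHNRNPK against Scramble; over all genes it left 2195, 2175, 2274, 139, 173 and 4 of 13933, and 5496 of 14642. The interaction called 6 genes by the Wald test of DESeq2, 13 without a filter and 3 to 13 with 1 library left out. Between kits in depleted cells 1 to 13 genes were called with 1 library left out (769 to 3162 over all genes). Over all genes the interaction was called for 18 genes, 66 under the replicate block, 65 by DESeq2 and 239 without a filter.

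Estimates near 0 that did not pass changed sign. SLC7A1 after knockdown was 0.012 with a mean of at least 50 counts and 0.015 with upper-quartile factors, and CTH was 0.016 and 0.019. With 1 library left out SLC7A1 ranged from -0.05 to 0.032, CTH from -0.081 to 0.037, and ADM2 from -0.067 to 0.207. Between kits in controls PPP1R15A ranged from -0.06 to 0.003 and PYCR1 from -0.026 to 0.177; between kits in depleted cells ATF4 ranged from -0.013 to 0.049, and for the interaction ATF3 ranged from -0.293 to 0.012. For siHNRNPK against Scramble without a filter, ATF4 was -0.029 and DDIT3 -0.033; SLC38A2 was 0.015 with a mean of at least 50 counts and 0.113 with upper-quartile factors, and with 1 library left out ATF4 ranged from -0.012 to 0.054 and DDIT3 from -0.038 to 0.09. Any overlap in place of 50% of a gene body put 1 gene, SLC38A2, in an H3K9me3 domain in each list. Of the single-gene results under other settings, 31 reversed, 62 lost and 30 gained their call, and 1674 did neither. The depth of VLDLR, CLGN, NUPR1 and SESN2, at a few CPM or less, limits what can be seen for them.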
